A study of Xenopus tropicalis with 16 samples.

Results

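The livers of female tropical clawed frogs (Xenopus tropicalis) exposed to triclosan were compared with the livers of unexposed females. The study sequenced 16 liver libraries in 4 groups of 4, and the 8 libraries used here were chosen by their treatment label alone, 4 from frogs exposed to triclosan and 4 from frogs that were not exposed. The other 8 libraries, 4 from frogs exposed to benzo[a]pyrene and 4 from frogs exposed to a mixture, entered the fit for its estimate of spread. They are drawn on where a difference between exposures was tested or where their values are set beside those of triclosan livers. The series title places the work in a study of chronic exposure to endocrine disruptors. The sources used here give neither the dose nor the length of exposure, nor the age of the frogs or what the mixture held. Each library is labelled as a biological replicate made from a piece of liver, with no word on whether frogs shared a tank, so every p-value below measures the spread between these samples.

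Triclosan is a chlorinated diphenyl ether that kills bacteria by blocking an enoyl reductase of their fatty acid synthesis, and it reaches fresh water from soaps and toothpaste. Vertebrate liver clears it mainly by attaching glucuronic acid or sulphate, work done by the UGT and SULT enzymes. In rodents it activates the xenobiotic receptors PXR and CAR, which switch on cytochrome P450 genes of the CYP2B and CYP3A families, and it lowers circulating thyroxine. Liver is also where egg-laying vertebrates make vitellogenin, the yolk precursor, under the control of oestrogen, and where most plasma proteins, cholesterol and newly made glucose come from.

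Values are FPKM, fragment numbers scaled to the length of the transcript and to the mapped fragments of the library, from a Cufflinks table per library, rescaled so that the median gene is at the same level in every library. The values imply 11300000 to 15100000 mapped fragments in the triclosan libraries and 11400000 to 13500000 in the unexposed libraries, within the 10900000 to 17900000 of all 16. The tables list 19921 genes, of which 7021 reached an FPKM of 1 in at least 4 of the 16 libraries and were tested. Of the estimates in the 8 libraries, 23 of 6 genes did not have the status OK and were treated as missing, among them albumin in every library. The globin gene hba1 had the highest mean of all genes over the libraries where it was estimated. It was missing in triclosan replicates 1, 3 and 4 and unexposed replicate 3, and hbg1 in triclosan replicate 4 and unexposed replicate 3. These missing globin estimates and those of albumin had the status HIDATA, the Cufflinks label for a locus with too many fragments, and a deposited FPKM of 0. They are gaps at abundant genes, and albumin could not be ranked. The other hepatocyte markers were abundant, with a summed level of 10160 to 20195 FPKM in the triclosan livers and 10063 to 20305 FPKM in the unexposed livers, and pigment cell markers summed to 0.289 to 0.488 FPKM and 0.416 to 1.07 FPKM in the same order of groups. Ribosomal protein genes made up 53.3 ± 3.5% of the summed FPKM in triclosan livers and 52.5 ± 5.2% in unexposed livers (SD, n = 4 each; exact two-sided permutation p = 0.8, adjusted over 3 shares 0.8). Mitochondrial genes made up 9.70 ± 2.53% and 11.005 ± 3.136%, in the same order of groups (exact permutation p = 0.6, adjusted 0.8), and the 10 most abundant genes 32.2 ± 1.3% and 33.1 ± 5.3% (exact permutation p = 0.8, adjusted 0.8). These shares leave out albumin and rest on unequal globin estimates. Over only the genes with the status OK in all 8 libraries, a choice made after seeing the data, the ribosomal share was 56.7 ± 2.1% in triclosan livers and 56.6 ± 2.5% in unexposed livers, the mitochondrial share 10.3 ± 2.4% and 12.01 ± 3.7%, and the 10-gene share 29.7 ± 1.8% and 31.04 ± 3.9% (exact permutation p = 0.8286, 0.486 and 0.571; 0.8286 for each when adjusted over the 3). With 4 libraries against 4 the smallest p this test can give is 0.0286.

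No gene passed the test between triclosan and unexposed livers. Of the 7021 genes, 0 (0.0%) had an adjusted p below 0.05 in limma with Benjamini-Hochberg adjustment, and the smallest adjusted p was 0.966. At an unadjusted p below 0.05 there were 305 genes (4.34%), of which 144 (2.05%) were higher and 161 (2.29%) lower in triclosan livers. Differences lay on both sides of 0, with 3491 genes above and 3528 below. The groups did not overlap in 195 genes: every triclosan library lay above every unexposed library in 88 genes (1.25%) and below in 107 genes (1.52%). Single livers moved these counts while the number that passed was 0 in every fit with a library left out. The 305 became 163 when triclosan replicate 1 was left out and 477 when triclosan replicate 3 was. Leaving out unexposed replicate 2 gave 510 and leaving out unexposed replicate 3 gave 196. Without overlap there were 740 genes when triclosan replicate 3 was left out and 599 when unexposed replicate 2 was, against 264 to 416 with any other liver left out, where 3 livers against 4 separate more easily by construction.

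The test bounds the size of most differences. The median standard error of a log2 difference was 0.24. The 95% confidence interval lay between -1 and 1, that is within a 2-fold change of FPKM + 1 either way, for 5346 genes (76.1%). Fold changes that bound an interval, here and below, are of FPKM + 1, and the change in FPKM itself can be larger in low genes. The interval lay within a 1.5-fold change for 2363 genes (33.7%). Intervals were wider at higher abundance: the interval lay within a 2-fold change for 87.8% of the genes with a mean below 2 FPKM, where the added 1 in log2(FPKM + 1) compresses differences, and for 58.9% of the genes at 100 FPKM or more. An estimated log2 difference of 1 or more in size was found in 120 genes. The libraries were about as alike across groups as within them. The median Spearman correlation over the tested genes was 0.885 for 6 pairs of triclosan livers, 0.878 for 16 pairs of a triclosan with an unexposed liver, and 0.884 for 6 pairs of unexposed livers, all of which share the same genes.

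**Figure D1:**
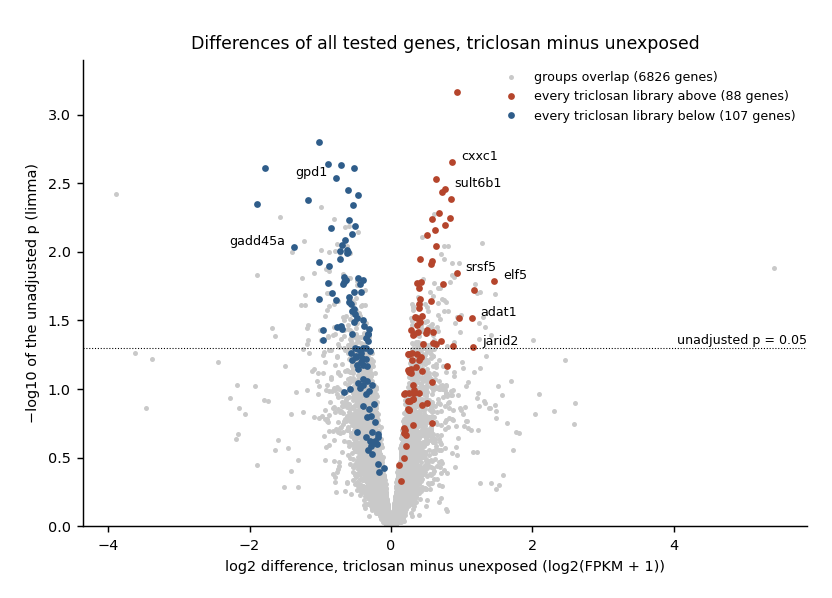
The log2 difference (triclosan minus unexposed) of each of the 7021 tested genes on the x axis against −log10 of its unadjusted limma p on the y axis. Genes whose libraries did not overlap are coloured, 88 with every triclosan library above and 107 with every triclosan library below; 305 genes lie above the dotted line, which marks limma's unadjusted threshold, and none passed the adjustment. Several of the widest differences belong to small RNAs such as Vault (-3.89) and SNORD14 (-3.37), whose groups overlapped or were at 0 in part of the libraries.

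The genes with the smallest p-values among those whose groups did not overlap are described next as values, since none passed the adjustment (adjusted p = 0.966 for each in limma). On the higher side the first was cxxc1 (ENSXETG00000021938), which encodes a CpG-binding subunit of the SET1 complex that methylates histone H3 at lysine 4. It stood at 8.38, 9.18, 7.33 and 8.34 FPKM in triclosan livers, against 3.36, 4.37, 3.56 and 5.27 FPKM in unexposed livers. The 4 triclosan livers were tightly grouped and all above the highest unexposed liver, with a log2 difference of 0.87 ± 0.24 (SE). The splicing factor gene srsf5 had 1315, 1151, 627 and 1059 FPKM in triclosan livers and 534, 603, 409 and 580 FPKM in unexposed livers, so that triclosan replicate 3 was only just above the highest unexposed liver. smarce1, a subunit of the BAF chromatin remodelling complex, averaged 19.1 ± 0.8 FPKM in triclosan livers and 14.2 ± 1.6 FPKM in unexposed livers, a small difference with little spread. NFKBIZ, an atypical IκB protein that acts in the nucleus, averaged 5.60 ± 0.90 and 3.02 ± 0.68 FPKM in triclosan and unexposed livers (SD, n = 4 each).

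sult6b1 (ENSXETG00000007889), a member of the cytosolic sulphotransferase family, had 8.16, 4.78, 3.90 and 3.99 FPKM in triclosan livers, against 3.00, 3.00, 2.82 and 1.51 FPKM in unexposed livers. Its separation was narrow apart from triclosan replicate 1, and its log2 difference was 0.77 ± 0.22. ftcd, which passes the formimino group of histidine breakdown to folate, had 17.4, 15.96, 13.1 and 11.5 FPKM in triclosan livers, against 9.21, 7.68, 9.02 and 5.13 FPKM in unexposed livers. All 4 triclosan livers were above 11 FPKM and all 4 unexposed livers below 10 FPKM, with a log2 difference of 0.84 ± 0.26. adamts13, the protease that trims von Willebrand factor, averaged 6.03 ± 1.39 FPKM in triclosan livers and 3.08 ± 0.56 FPKM in unexposed livers. angptl4, a secreted inhibitor of lipoprotein lipase, averaged 5.52 ± 1.99 and 2.44 ± 1.33 FPKM, triclosan livers first. The DNA polymerase gene poli, the tRNA deaminase gene adat1 and the genes ankrd16, pdlim1, cep97 and rem1 were also separated upward, with log2 differences between 0.40 and 1.14. The epithelial transcription factor gene elf5 had the widest difference of the higher set, 1.46 ± 0.54, with 20.3, 2.31, 3.46 and 3.93 FPKM in triclosan livers, against 1.06, 1.77, 1.09 and 1.24 FPKM in unexposed livers. Without triclosan replicate 1, which stood far above the rest, its difference was 0.88.

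On the lower side, gpd1 (ENSXETG00000013352), the cytosolic glycerol-3-phosphate dehydrogenase that links glycolysis to glycerolipid synthesis, had 14.2, 21.3, 16.6 and 20.0 FPKM in triclosan livers, against 29.0, 29.4, 34.7 and 32.0 FPKM in unexposed livers. The gap between the groups was wider than the range within either, and the log2 difference was -0.78 ± 0.22. A second gene listed as GPD1 in capitals is a separate entry and had a log2 difference of -0.31. abat, which breaks down GABA and β-alanine, had 8.54, 9.06, 8.94 and 10.46 FPKM in triclosan livers, against 13.8, 13.04, 13.6 and 15.0 FPKM in unexposed livers. Both groups were narrow, and the log2 difference was -0.54 ± 0.16. oxct1, which lets tissues other than liver burn ketone bodies in mammals, averaged 8.42 ± 1.72 FPKM in triclosan livers and 12.4 ± 1.1 FPKM in unexposed livers.

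tfg, which organises the sites where vesicles leave the endoplasmic reticulum (ER), had 19.4, 20.5, 17.5 and 17.5 FPKM in triclosan livers, against 28.7, 23.5, 28.6 and 35.4 FPKM in unexposed livers. sar1b, the GTPase that starts the COPII coat and is needed to export large lipoproteins, averaged 5.04 ± 0.87 and 8.60 ± 2.35 FPKM, triclosan livers first. sdf2, which encodes an ER-resident protein, had 5.20, 7.09, 7.31 and 7.02 FPKM in triclosan livers, against 8.39, 8.46, 17.998 and 20.2 FPKM in unexposed livers, and vapa, an ER membrane tether, averaged 10.03 ± 2.5 and 17.5 ± 5.3 FPKM. In sdf2 and vapa, unexposed replicates 3 and 4 were far above unexposed replicates 1 and 2. uchl3, a ubiquitin hydrolase, averaged 4.88 ± 1.16 FPKM in triclosan livers and 8.51 ± 1.04 FPKM in unexposed livers, with a log2 difference of -0.71 ± 0.20. gadd45a, induced by DNA damage and other stresses, had 2.78, 1.31, 3.13 and 2.85 FPKM in triclosan livers, against 4.46, 4.27, 9.65 and 19.001 FPKM in unexposed livers, with the same unexposed livers high and a log2 difference of -1.37 ± 0.46. lamtor2, cmc2, ccdc126, LLPH and ppp2ca were also in the lower set, with log2 differences between -0.87 and -0.42.

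**Figure D2:**
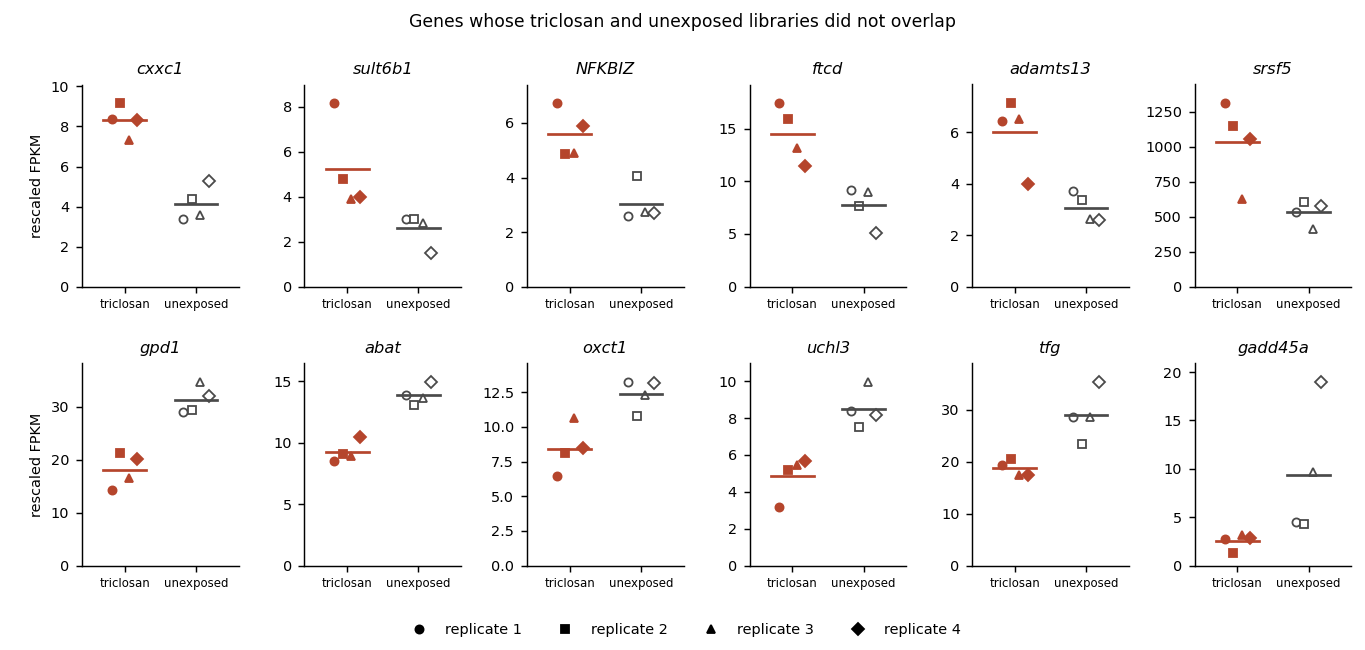
Rescaled FPKM (y axes, each starting at 0) of 12 genes in each of the 4 triclosan and 4 unexposed livers, with a bar at each group mean and a marker shape per replicate number. The upper row shows 6 genes with every triclosan liver above every unexposed liver and the lower row 6 genes with every triclosan liver below; in gadd45a the unexposed livers reach from 4.27 to 19.001 FPKM.

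Genes of xenobiotic handling, the group most tied to triclosan in mammals, were mixed. Among 32 tested receptors and phase I enzymes, 12 had log2 differences above 0 and 20 below, with a median of -0.09, against -0.0015 over all tested genes. Among 24 tested conjugating enzymes, 9 were above 0 and 15 below, with a median of -0.15. Neither median kept its sign when single libraries were left out, reaching 0.03 and 0.003. The gene listed as CYP3A5 (ENSXETG00000033940), of the drug-metabolising family that PXR induces, had 29.5, 14.5, 9.82 and 20.5 FPKM in triclosan livers, against 10.48, 8.10, 5.65 and 4.33 FPKM in unexposed livers. Triclosan replicate 3 lay below the highest unexposed liver, and the log2 difference was 1.22 ± 0.47 (limma, unadjusted p = 0.02, adjusted p = 0.966). This CYP3A5 gene averaged 17.5 ± 12.1 FPKM in benzo[a]pyrene livers and 23.1 ± 13.6 FPKM in mixture livers. Its log2 difference was 0.20 ± 0.47 for triclosan minus benzo[a]pyrene and -0.24 ± 0.47 for triclosan minus mixture. The separate gene cyp3a5 (ENSXETG00000005360) averaged 6.19 ± 1.57 FPKM in triclosan livers and 4.33 ± 0.85 FPKM in unexposed livers, and cyp3a4 averaged 3.85 ± 2.81 and 2.34 ± 1.05 FPKM. All 3 were on the higher side and none passed. Reads of such similar genes can be split differently between them, so their single values are uncertain. cyp2d6 was lower in triclosan livers without overlap, with 2.34 ± 0.40 FPKM in triclosan livers and 4.01 ± 1.10 FPKM in unexposed livers.

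The phenol-conjugating enzyme genes ugt1a6 and sult1a1 did not average above the unexposed level. ugt1a6, a glucuronosyltransferase of phenols, had 7.99, 8.55, 10.3 and 6.66 FPKM in triclosan livers, against 9.22, 11.1, 12.6 and 10.7 FPKM in unexposed livers. The ranges overlapped in part, and the 95% interval of the log2 difference was -0.73 to 0.03. sult1a1, the main phenol sulphotransferase of mammalian liver and abundant here, averaged 104 ± 30 FPKM in triclosan livers and 122 ± 15 FPKM in unexposed livers, with an interval of -1.01 to 0.48. SULT1B1, which sulphates thyroid hormones in mammals, averaged 14.7 ± 4.3 and 12.8 ± 3.4 FPKM, triclosan livers first. ugp2, which makes the UDP-glucose from which UDP-glucuronic acid is formed, had 6.92, 12.6, 9.44 and 18.7 FPKM in triclosan livers, against 18.5, 16.5, 39.8 and 24.1 FPKM in unexposed livers, with 1 triclosan liver inside the unexposed range and a log2 difference of -0.99 ± 0.34. The canalicular exporters differed from each other in direction: abcc2, which carries conjugates into bile, averaged 2.29 ± 0.52 FPKM in triclosan livers and 3.42 ± 1.299 FPKM in unexposed livers, and abcb11, the bile salt pump, 2.28 ± 1.04 and 1.03 ± 0.50 FPKM. cyp1a1, the classic target of the aryl hydrocarbon receptor, averaged 36.7 ± 13.6 FPKM in triclosan livers and 40.1 ± 7.3 FPKM in unexposed livers, and NR1I3, the gene for CAR, 2.80 ± 0.63 and 4.49 ± 1.27 FPKM. The PXR gene nr1i2 was too low to test.

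A set of 43 genes was chosen for what is known of triclosan, the metabolic and thyroid axes it touches in other vertebrates, and earlier results of these data. Of these, 36 were tested, 15 with log2 differences above 0 and 21 below. 6 had an unadjusted p below 0.05 (4.34% of all tested genes did), 4 did not overlap between the groups (1.25% of all tested genes were separated upward and 1.52% downward), and for 14 the 95% interval lay within a 2-fold change (76.1% of all tested genes). The 4 without overlap were cxxc1 and jarid2 above and gpd1 and uchl3 below, which were put in the set because of those earlier results. All 4 are also among the 6 with an unadjusted p below 0.05 in limma, so neither count is independent of these data.

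Of 18 listed genes of the thyroid axis 9 were tested, and for 7 of these the interval lay within a 2-fold change. ttr, the plasma carrier of thyroid hormone in frogs, had 367, 297, 369 and 262 FPKM in triclosan livers, against 200, 625, 342 and 344 FPKM in unexposed livers, with the triclosan livers inside the unexposed range and an interval of -0.94 to 0.71. klf9, a direct target of the thyroid hormone receptor in tadpoles, averaged 3.60 ± 1.80 FPKM in triclosan livers and 2.62 ± 0.37 FPKM in unexposed livers (interval -0.25 to 0.79). Of the 9 tested genes 5 were above 0 and 4 below, with a median of 0.06 that was -0.08 to 0.20 with single libraries left out and -0.03 without rescaling.

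The oestrogen-controlled yolk gene vtga2 varied widely between the frogs of each group. vtga2, a vitellogenin gene, had 3583, 2661, 3994 and 174 FPKM in triclosan livers, against 936, 57.4, 297 and 2731 FPKM in unexposed livers. 3 triclosan livers and 1 unexposed liver were high, and the log2 difference of 1.81 ± 1.38 had an interval of -1.14 to 4.75. The oestrogen receptor gene esr1 averaged 1.299 ± 0.34 FPKM in triclosan livers and 1.65 ± 0.41 FPKM in unexposed livers. Of 7 tested genes of the vitellogenesis and oestrogen list, 4 were above 0 and 3 below. The list median of 0.26 was 0.01 to 0.32 with single libraries left out. Its summed level was 3327 to 15114 FPKM in triclosan livers and 7528 to 10678 FPKM in unexposed livers.

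**Figure D3:**
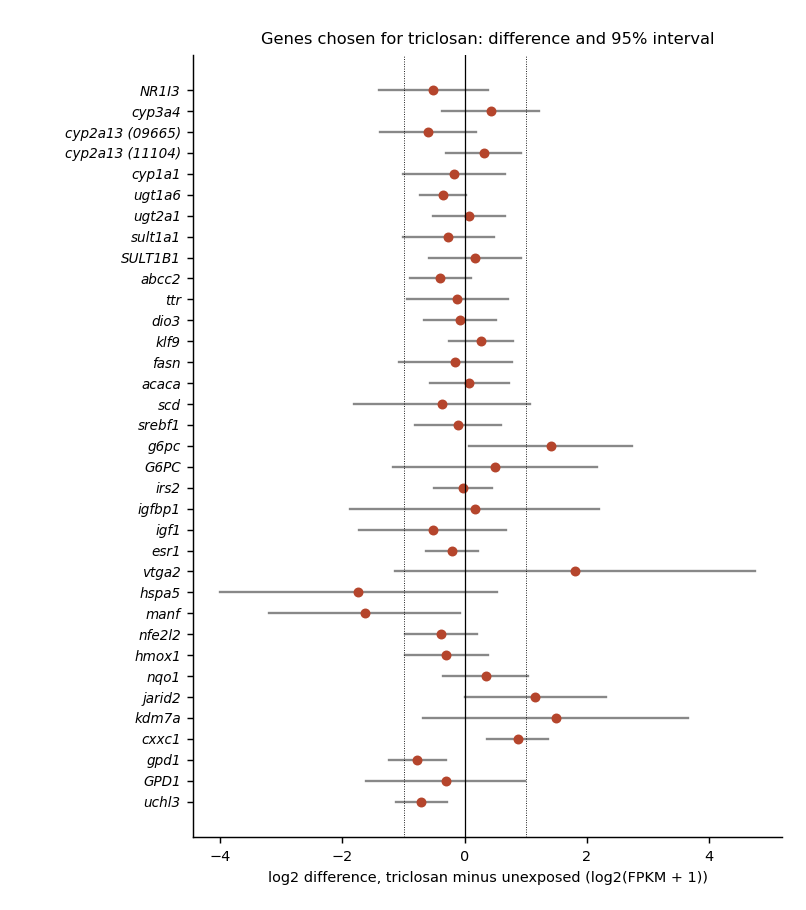
Log2 difference (x axis, triclosan minus unexposed) of 35 of the 36 tested genes of the chosen set, with the limma 95% confidence interval as a line. Dotted lines mark a 2-fold change of FPKM + 1 either way. The intervals of vtga2 (-1.14 to 4.75), hspa5 (-4.00 to 0.52) and kdm7a are among the wide ones, while esr1, irs2 and ugt1a6 are held within a 2-fold change on that scale.

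Glucose output and lipid genes were also mixed. g6pc (ENSXETG00000013641), the last step of glucose release, had 35.3, 7.46, 15.7 and 16.4 FPKM in triclosan livers, against 13.9, 9.90, 3.48 and 1.47 FPKM in unexposed livers. 3 triclosan livers were above every unexposed liver, and the log2 difference was 1.41 ± 0.63 (limma, unadjusted p = 0.0401, adjusted p = 0.966). The separate gene G6PC (ENSXETG00000024588) averaged 8.45 ± 4.96 and 5.41 ± 2.30 FPKM, triclosan livers first. ppp1r3b, which targets a phosphatase to glycogen and favours its storage, had 12.03, 13.1, 13.3 and 6.77 FPKM in triclosan livers, against 21.3, 13.4, 17.8 and 27.3 FPKM in unexposed livers, without overlap but with the nearest livers of the 2 groups almost level. Of the 26 tested genes of glycolysis, glycogen and glucose output, 12 were above 0 and 14 below. The lipogenic genes fasn, acaca, srebf1 and scd had log2 differences of -0.16, 0.08, -0.11 and -0.36, with intervals that all included 0, and the list of 24 had 7 above and 17 below, with a median of -0.17. Without unexposed replicate 2, which held the highest value of 10 of the 24, that median was 0.06. akr1d1, the reductase that shapes bile acids and clears steroid hormones, had 26.7, 13.6, 7.12 and 11.9 FPKM in triclosan livers, against 63.2, 29.7, 15.2 and 43.0 FPKM in unexposed livers. Only triclosan replicate 1 overlapped the unexposed range, and the log2 difference was -1.26 ± 0.46 (unadjusted p = 0.0154 and adjusted p = 0.966 in limma).

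Insulin-like growth factors set 1 triclosan liver apart. igf2 had 89.3, 13.9, 17.9 and 16.5 FPKM in triclosan livers, against 61.7, 91.5, 25.1 and 26.1 FPKM in unexposed livers. igf1 had 7.16, 2.53, 2.73 and 2.26 FPKM in triclosan livers, against 10.8, 4.95, 4.70 and 2.74 FPKM in unexposed livers. Triclosan replicates 2 to 4 lay below every unexposed liver in both genes, while triclosan replicate 1 was inside the unexposed range. In the same liver, 24 of the 38 tested cell cycle and DNA replication genes had their highest value of the 8 libraries, against 1043 of all 7021 genes. That list had 30 genes above 0 and 8 below, with a median of 0.14, and its median was 0.07 to 0.26 with single libraries left out.

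The ER chaperone and unfolded protein response list had the lowest median of the lists with 10 or more tested genes. The lists were written with earlier results of these data known, so neither this rank nor the counts are independent of them. Of the 35 tested genes of the ER list, 29 were below 0 and 6 above, with a median of -0.52. In this list 3 genes had an unadjusted p below 0.05 in limma, all lower, where 2.29% of all tested genes did. The order of libraries within the list was not that of the groups. Averaged over its genes and relative to the mean of the 8 libraries, the list stood at -0.50, -0.02, -0.11 and -0.45 on the log2 scale in triclosan livers, against -0.09, -0.58, 1.04 and 0.71 in unexposed livers. The high livers were unexposed replicates 3 and 4, and the other 2 unexposed livers were within the triclosan range or below it. Those 2 high livers held the highest value of 31 of the 35 genes, 22 in unexposed replicate 3 and 9 in unexposed replicate 4. Against the same unexposed livers, the ER list median was -0.87 in benzo[a]pyrene livers and -0.19 in mixture livers.

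The single genes show that split. hspa5, the ER chaperone BiP, had 2.36, 6.62, 2.87 and 4.08 FPKM in triclosan livers, against 3.65, 1.13, 133 and 46.0 FPKM in unexposed livers. manf, a secreted protein induced by ER stress, had 0.279, 1.11, 0.312 and 0.270 FPKM in triclosan livers, against 0.647, 0.249, 22.7 and 7.62 FPKM in unexposed livers. No triclosan liver reached the level of the 2 high unexposed livers in either gene, and the remaining 2 unexposed livers were as low as the triclosan livers. hsp90b1, the ER form of HSP90, chosen after its values were seen, had 4.57, 15.6, 6.75 and 7.05 FPKM in triclosan livers, against 10.9, 3.22, 86.1 and 54.4 FPKM in unexposed livers. spcs2, a subunit of the signal peptidase, was low in a single unexposed liver, with 12.9, 20.6, 25.5 and 28.006 FPKM in triclosan livers, against 65.1, 21.3, 73.9 and 60.6 FPKM in unexposed livers. The log2 differences were -1.74 ± 1.06 for hspa5, -1.64 ± 0.73 for manf and -1.22 ± 0.47 for spcs2, and none passed. The list median was -0.70 to -0.28 when single libraries were left out. Of 24 hepatocyte markers, 14 had their highest value in unexposed replicate 3, against 1335 of all 7021 genes. Averaged in the same way, these markers stood at 0.35 in unexposed replicate 3. In unexposed replicate 4 they stood at -0.37, the lowest of the 8 libraries. Their part in the ER result was not tested.

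The amino acid breakdown list had a median below 0 by a smaller margin. Of 51 tested genes of amino acid catabolism and the urea cycle, 44 were below 0 and 7 above, with a median of -0.28 that was -0.38 to -0.21 with single libraries left out. The library averages were -0.26, 0.11, -0.27 and -0.09 in triclosan livers, against 0.23, 0.40, 0.16 and -0.28 in unexposed livers, so unexposed replicate 4 was as low as the lowest triclosan livers and the groups overlapped. This list, too, had medians below 0 in the other exposures against unexposed livers, -0.34 for benzo[a]pyrene and -0.19 for the mixture. gls2, the liver glutaminase, averaged 1.56 ± 0.75 FPKM in triclosan livers and 3.73 ± 1.51 FPKM in unexposed livers. tat, which starts tyrosine breakdown, had 12.5, 12.2, 7.93 and 20.9 FPKM in triclosan livers, against 18.6, 28.8, 29.0 and 20.3 FPKM in unexposed livers. ivd, of leucine breakdown, was separated with very little spread, at 5.12 ± 0.40 FPKM in triclosan livers and 6.76 ± 0.10 FPKM in unexposed livers. ftcd, above, was the member that stood clearly on the other side. cebpa, the gene of a transcription factor that drives many liver enzymes, had 19.4, 40.1, 32.2 and 28.2 FPKM in triclosan livers, against 43.3, 41.5, 56.9 and 46.8 FPKM in unexposed livers. Its groups did not overlap, with a log2 difference of -0.67 ± 0.39. The hepatocyte marker list as a whole had 18 of 24 genes below 0 and a median of -0.10.

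Cholesterol synthesis leaned the other way and tracked single livers. 15 of 19 tested genes were above 0 and 4 below, with a median of 0.25 that was 0.08 to 0.46 with single libraries left out. The library averages were 0.38, 0.04, 0.59 and -0.52 in triclosan livers, against -0.50, -0.51, 0.06 and 0.46 in unexposed livers. Triclosan replicates 1 and 3 and unexposed replicate 4 were high, and triclosan replicate 4 and unexposed replicates 1 and 2 were low. MSMO1, a sterol demethylating oxidase named after its values were seen, had 16.8, 20.3, 60.2 and 6.80 FPKM in triclosan livers, against 3.47, 2.79, 16.9 and 43.4 FPKM in unexposed livers. ldlr, the receptor that takes up LDL, averaged 11.99 ± 5.4 and 7.48 ± 2.58 FPKM, triclosan livers first. None of the 19 had an unadjusted p below 0.05.

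**Figure D4:**
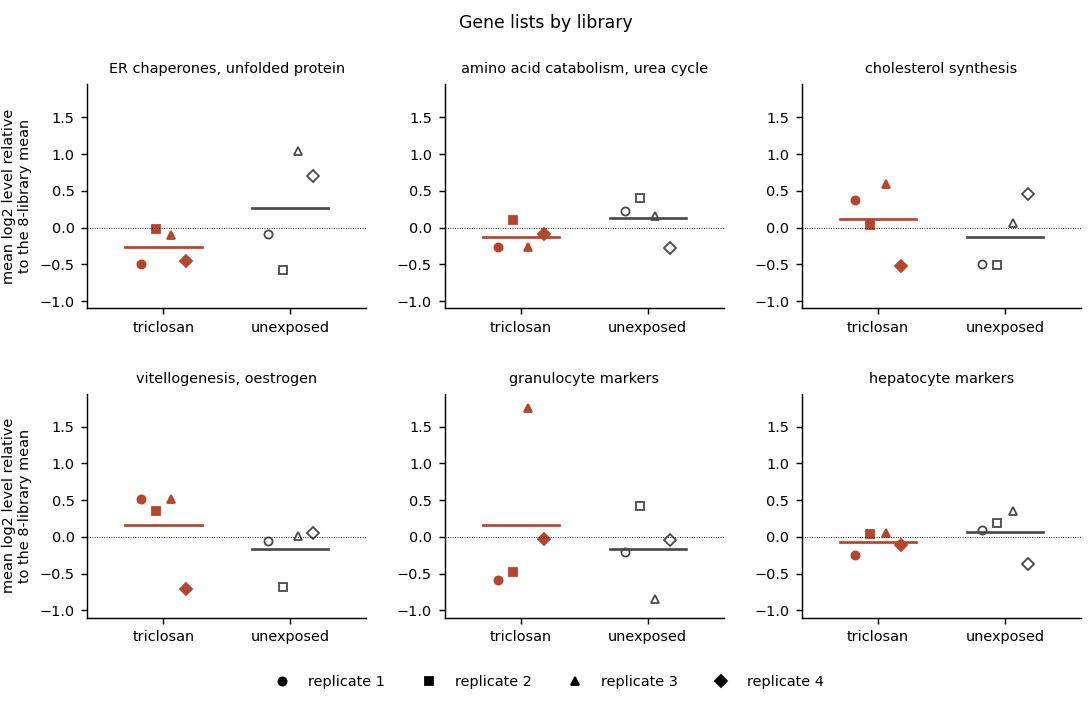
Mean log2 level of 6 gene lists in each library relative to the mean of the 8 libraries (y axes, common scale), with a bar at each group mean and a marker shape per replicate number. In the ER panel unexposed replicates 3 and 4 stand at 1.04 and 0.71 while all 4 triclosan livers are below 0; in the granulocyte panel triclosan replicate 3 stands alone at 1.76.

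White blood cell genes were high in 1 triclosan liver. Of 7 tested granulocyte markers, 6 were above 0, with a median of 0.40, and the list averaged -0.59, -0.48, 1.76 and -0.02 in triclosan livers, against -0.21, 0.42, -0.85 and -0.04 in unexposed livers. Triclosan replicate 3 held the highest value of 6 of the 7 genes, with a summed level of 411 FPKM, against 36.6 to 82.8 FPKM in the other triclosan livers and 25.5 to 109 FPKM in unexposed livers. Without that liver the median turned to -0.25. mpo, the peroxidase of neutrophil granules, had 4.35, 3.70, 20.6 and 6.34 FPKM in triclosan livers, against 2.95, 5.96, 1.72 and 3.56 FPKM in unexposed livers, and prtn3, a granule protease, 21.6, 13.2, 259 and 45.7 FPKM, against 27.1, 59.7, 9.64 and 26.1 FPKM. Macrophage markers had the highest value of 8 of 12 genes in the same liver, and lymphocyte markers of 4 of 8. In libraries made from whole tissue, more cells of a type and more RNA per cell cannot be told apart. CD247, a T cell receptor chain named after its values were seen, was the marker of this kind without overlap, at 0.498, 1.10, 0.649 and 0.499 FPKM in triclosan livers, against 0.170, 0, 0.105 and 0.144 FPKM in unexposed livers, all of them low levels. CD247 reached the filter's FPKM of 1 only in exposed livers, so being tested at all favoured a higher level in them. Its separation is therefore given as a value only. Lymphocyte markers, CD247 included, were 7 of 8 above 0, with a median of 0.24 that was 0.16 to 0.47 with single libraries left out.

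Bile duct markers were 5 above and 4 below 0, but the duct keratin gene krt19 had 174, 219, 282 and 180 FPKM in triclosan livers, against 224, 387, 318 and 376 FPKM in unexposed livers. Of 9 tested stellate and mesenchyme markers, 4 were above 0 and 5 below, with a median of -0.02. One of them, tagln, a smooth muscle and stellate cell gene, had 2.30, 1.07, 1.10 and 1.71 FPKM in triclosan livers, against 6.52, 2.11, 3.78 and 4.46 FPKM in unexposed livers. In each gene 1 triclosan liver was inside the unexposed range, and their log2 differences were -0.60 ± 0.28 and -0.99 ± 0.30. Among ribosomal protein genes, 51 of 76 were below 0 with a median of -0.10. Unexposed replicate 1 held the highest value of 57 of the 76, and without it the median was 0.03. The gene rpl3 was separated, with 397, 401, 514 and 505 FPKM in triclosan livers, against 699, 591, 765 and 917 FPKM in unexposed livers. The iron hormone gene HAMP ranged from 7.93 to 602 FPKM in triclosan livers and from 117 to 2043 FPKM in unexposed livers, and f7, of the clotting cascade, averaged 47.5 ± 17.9 FPKM in triclosan livers and 25.7 ± 13.6 FPKM in unexposed livers.

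Chromatin modifiers leaned slightly upward, and jarid2 and kdm7a had the wide differences among them. Of 37 tested chromatin modifiers, 25 were above 0 and 12 below in triclosan minus unexposed, with a median of 0.10, and 34 had intervals within a 2-fold change. Against the same unexposed livers, the median of this list was 0.22 in benzo[a]pyrene livers and 0.11 in mixture livers. jarid2 (ENSXETG00000015433), a cofactor of Polycomb repressive complex PRC2, had 52.4, 46.1, 22.1 and 40.1 FPKM in triclosan livers, against 17.1, 21.1, 12.8 and 16.5 FPKM in unexposed livers. The groups did not overlap, though triclosan replicate 3 exceeded unexposed replicate 2 by about 1 FPKM, and the log2 difference was 1.16 ± 0.54 (limma, unadjusted p = 0.0492, adjusted p = 0.966). kdm7a, a demethylase of repressive histone marks, had 257, 292, 101 and 229 FPKM in triclosan livers, against 48.2, 58.4, 90.6 and 106 FPKM in unexposed livers. Triclosan replicate 3 was again the low one and fell inside the unexposed range, and the difference was 1.49 ± 1.02. The standard errors of jarid2 and kdm7a pool the spread within all groups of the series. They include the wide spread of the benzo[a]pyrene livers in both genes, given below. kdm5c, a demethylase of histone H3 lysine 4, averaged 3.25 ± 0.41 FPKM in triclosan livers and 2.46 ± 0.30 FPKM in unexposed livers.

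Whether triclosan livers differed from livers of the other exposures was tested in the same fit. Between triclosan and benzo[a]pyrene 6 of 7021 genes (0.0855%) passed, 2 higher and 4 lower in triclosan livers. The wide one was jarid2, at 1.33, 0.994, 14.6 and 0.413 FPKM in benzo[a]pyrene livers, below every triclosan liver, with a log2 difference of 3.63 ± 0.54 and an adjusted p of 0.0152 in limma. nfix, a transcription factor of the nuclear factor I family, had 3.28, 1.44, 1.82 and 1.87 FPKM in triclosan livers, against 0.266, 0.674, 0.204 and 0.239 FPKM in benzo[a]pyrene livers (1.19 ± 0.17, limma adjusted p = 0.0152). Both genes were higher in triclosan livers without overlap, and nfix was at 1.079, 1.505, 1.25 and 1.28 FPKM in unexposed livers.

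The other 4 were lower in triclosan livers. hpgd, which inactivates prostaglandins, had 2.27, 3.82, 4.17 and 3.80 FPKM in triclosan livers, against 15.3, 36.7, 14.5 and 13.3 FPKM in benzo[a]pyrene livers (-2.11 ± 0.31, limma adjusted p = 0.0152), and 5.37, 3.25, 6.69 and 5.57 FPKM in unexposed livers. kdm6b, a demethylase of histone H3 lysine 27, averaged 0.827 ± 0.303 FPKM in triclosan livers and 3.23 ± 1.08 FPKM in benzo[a]pyrene livers (-1.18 ± 0.19, limma adjusted p = 0.0265). msl1, of a complex that acetylates histone H4, averaged 3.55 ± 0.54 FPKM in triclosan livers and 11.8 ± 4.81 FPKM in benzo[a]pyrene livers (-1.42 ± 0.25, limma adjusted p = 0.0451). The last, listed only as XB-GENE-5857146, averaged 1.68 ± 0.48 and 5.22 ± 0.799 FPKM in those groups (-1.22 ± 0.20, limma adjusted p = 0.0309). Triclosan livers were close to the unexposed level in kdm6b, msl1 and the last gene, with intervals of triclosan minus unexposed of -0.36 to 0.45, -0.71 to 0.36 and -0.28 to 0.58. The count of 6 depended on single libraries: it was 59 without benzo[a]pyrene replicate 3, 2 without benzo[a]pyrene replicate 2, 0 without benzo[a]pyrene replicate 4, and 1 without triclosan replicate 1 or 2. With all libraries it was 2 without rescaling and 3 at an added value of 0.1 in place of 1, and 17 without trend and robust moderation. It was 0 with a block for replicate number. Over all tested genes, deviations of same-numbered triclosan and benzo[a]pyrene libraries correlated at -0.23 to 0.11. Pairing in single genes was not tested. kdm7a was at 9.61, 1.96, 157 and 0.234 FPKM in benzo[a]pyrene livers, and its difference from triclosan livers, 4.54 ± 1.02, did not pass (adjusted p = 0.0699 in limma).

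Between triclosan and the mixture 0 of 7021 genes (0.0%) passed in limma, with a smallest adjusted p of 0.999 and 199 genes at an unadjusted p below 0.05. Mixture replicate 4 had 10.6% of its summed FPKM in ribosomal RNA genes, against 3.4% in the next highest library, benzo[a]pyrene replicate 4. It also had the fewest genes at 1 FPKM or more, 4832, and it entered the pooled estimate of spread. jarid2 had 36.7, 36.6, 28.4 and 41.7 FPKM in mixture livers and kdm7a 255, 132, 156 and 212 FPKM, both within the range of the triclosan livers. The log2 differences of triclosan minus mixture were 0.11 ± 0.54 for jarid2 and 0.16 ± 1.02 for kdm7a, with 95% intervals of -1.05 to 1.26 and -2.01 to 2.32. For side-by-side reading, jarid2 averaged 40.2 FPKM in triclosan, 4.33 FPKM in benzo[a]pyrene, 35.8 FPKM in mixture and 16.9 FPKM in unexposed livers.

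**Figure D5:**
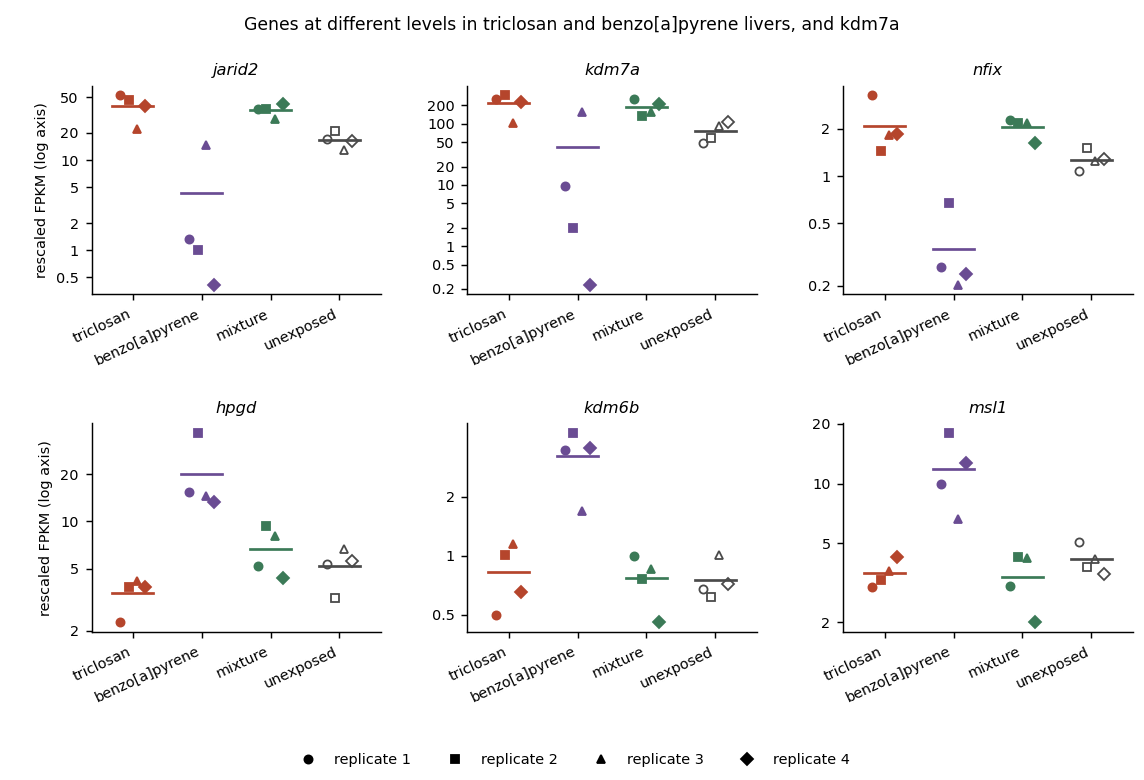
Rescaled FPKM (log axes) of 6 genes in each library of the triclosan, benzo[a]pyrene, mixture and unexposed groups, with a bar at each group mean and a marker shape per replicate number. jarid2 and kdm7a are high in triclosan and mixture livers and, apart from replicate 3, low in benzo[a]pyrene livers; hpgd, kdm6b and msl1 are high in benzo[a]pyrene livers.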

How the data were processed

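Poly(A) RNA of each liver piece was sequenced as stranded 75-base reads, per the labels' protocols. Trimmomatic 0.32.1, TopHat2, Bowtie 0.12.7 and Cufflinks are named in the submitters' processing notes; build, annotation and strand setting are not named there. The authors deposited FPKM per gene and library with a status per estimate. Read counts were not used here, so no count test was run; depth is an approximation from the deposited Cufflinks intervals. Estimates with a status other than OK were missing. FPKM were rescaled by the median of ratios over 3959 genes at 1 or more in all 16 libraries, kept at a deposited FPKM of at least 1 in 4 of 16 libraries with 3 OK estimates per group, and tested as log2(FPKM + 1) in limma 3.58.1 (R 4.3.3; trend and robust, a mean per group), called at an adjusted p below 0.05. Fold changes on that scale understate those of low genes. Shares were tested by exact permutation over 70 divisions. The comparison, the gene lists and the chosen genes were set with earlier results of these data known. Named genes were, per direction, the 15 with the smallest p among genes with a symbol, no overlap and a mean of 5 FPKM in a group. Also named were 2 per direction of each list, the 43 chosen genes and the genes called between exposures. Of the 43 genes, 7 were too low to test. The 4 chosen symbols ugt1a1, sult2a1, dio1 and vtgb1 are not among the 43 and are not used here. Other genes are said to be named after their values were seen. Sequences, coordinates and a few genes of these rules are not reported here. Alternatives changed the pseudocount, rescaling, filter, libraries, moderation, status rule and block, and left out each library.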

Additional observations from a re-analysis of the deposited data

Results flagged for a closer look

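In groups of 4, a liver was set apart when its gap to the nearest of the other 3 took up nearly the whole range (Dixon's 95% limit). Of the 230 groups examined 15 held such a liver. For independent groups of normally distributed values chance gives about 1 in 20. These groups share the same livers and are mostly FPKM of genes named for their values, so that rate is only a rough guide.

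Triclosan replicate 1 stood apart with 7.16 FPKM of igf1, 89.3 FPKM of igf2 and 20.3 FPKM of elf5, all high for its group, and with 0.916 FPKM of scd and 5.20 FPKM of sdf2, both low. Triclosan replicate 2 stood apart in manf, with 1.11 FPKM against 0.27 to 0.31 FPKM in the rest of its group. Triclosan replicate 3 stood apart in 2 granulocyte protease and peroxidase genes, with 20.6 FPKM of mpo and 259 FPKM of prtn3, and its glycolysis and glucose list averaged 0.16 on the log2 scale relative to the 8 livers. Triclosan replicate 4 was low in the vitellogenesis and oestrogen list, at -0.71. Among unexposed livers, replicate 2 was low in the vitellogenesis and oestrogen list (-0.69) and in esr1 (1.04 FPKM) and high in NFKBIZ (4.04 FPKM). Unexposed replicate 3 was high in klf9 (3.17 FPKM) and unexposed replicate 4 low in sult6b1 (1.51 FPKM).

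6 genes differed between triclosan and benzo[a]pyrene by limma's test of the difference itself. The log2 differences, triclosan minus benzo[a]pyrene, were 3.63 for jarid2, 1.19 for nfix, -2.11 for hpgd, -1.18 for kdm6b, -1.42 for msl1 and -1.22 for XB-GENE-5857146.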

How the results depend on the processing

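Under all alternatives run, the number of genes past the threshold was 0 for triclosan minus unexposed and for triclosan minus mixture. The 305 genes at an unadjusted p below 0.05 became 193 without rescaling, 634 without a filter and 129 at a filter of 5 FPKM, and 163 to 510 with single libraries left out. The 5346 bounded intervals became 3850 and 4690 at pseudocounts of 0.1 and 0.5, 14518 and 2084 under those filters, which test other numbers of genes, and 4782 to 5126 with libraries left out. The 195 genes without overlap became 363 and 78 under those filters, and 264 to 740 with libraries left out. The 6 genes of triclosan minus benzo[a]pyrene became 3 at a pseudocount of 0.1, 2 without rescaling, 12 with upper-quartile rescaling, 16 at 5 FPKM, 17 without trend and robust moderation, and 0 to 59 with libraries left out; the cause was not tested. Over all tested genes, the deviations of same-numbered triclosan and unexposed libraries correlated at -0.0016, -0.25, 0.064 and -0.027. Differently numbered libraries of these groups correlated at -0.19 to 0.23. Same-numbered triclosan and benzo[a]pyrene libraries correlated at -0.036, -0.057, -0.23 and 0.11, and those of triclosan and mixture at -0.22 to -0.11. Pairing in single genes was not tested. With the replicate block, 289 genes had an unadjusted p below 0.05, and 0 passed against unexposed, benzo[a]pyrene or mixture livers. With single libraries left out, the ribosomal share difference was -1.51 to 2.54 percentage points, the mitochondrial -2.62 to -0.07 and the 10-gene share -3.37 to 0.78. The ribosomal share was -0.577 without triclosan replicate 4. Many of the 81 named genes were picked for separated groups or a small p, which by itself favours a kept sign. Of their 1504 values, 1488 kept their sign and 0 passed the threshold. The 16 others lay in 8 genes. With single libraries left out these genes ranged over 0 on the log2 scale: acaca -0.03 to 0.22, fasn -0.37 to 0.081, irs2 -0.17 to 0.093, kdm6b -0.035 to 0.14, prtn3 -0.11 to 1.29, scd -0.70 to 0.092, srebf1 -0.26 to 0.034 and ttr -0.38 to 0.17. Upper-quartile rescaling gave irs2 0.00022, and no rescaling gave kdm6b -0.0033. Without rescaling the median of all genes shifted by -0.07. Depth is known only roughly, so no counting interval is given.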

Other observations

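The bile acid synthesis and transport list had 4 of 17 tested genes above 0 and 13 below, with a median of -0.19 that was -0.34 to -0.13 with single libraries left out. Its summed level was 269, 243, 228 and 219 FPKM in triclosan livers, against 326, 273, 288 and 297 FPKM in unexposed livers. These sums did not overlap, though triclosan replicate 1 and unexposed replicate 2 were close. Averaged over its genes on the log2 scale the groups did overlap, with triclosan replicate 1 at 0.07 and unexposed replicate 4 at 0.009. The steroid and retinoid list had 8 of 24 above 0 and 16 below (median -0.14), the fatty acid oxidation and ketogenesis list 12 of 34 above and 22 below (-0.11), and the antioxidant and NRF2 list 11 of 31 above and 20 below (-0.11). Summed levels of the fatty acid oxidation and ketogenesis list did not overlap either. They were 482, 527, 543 and 419 FPKM in triclosan livers, against 578, 563, 579 and 622 FPKM in unexposed livers. Its log2 averages did overlap, with triclosan replicate 3 at 0.10 and unexposed replicate 4 at -0.03. Summed levels were computed for every list, and in most lists the groups overlapped. Separation of these sums was not set as a result beforehand and was not tested.

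The 17 tested p53 and DNA damage genes were 8 above and 9 below 0 with a median of -0.002. That median was -0.03 to 0.18 with single libraries left out. The 13 heat shock genes were 6 above and 7 below with a median of -0.01. The 11 circadian clock genes were 6 above and 5 below (median 0.01), the 17 extracellular matrix genes 11 above and 6 below (0.01), and the 37 proteasome genes 18 above and 19 below (-0.01). The 77 nuclear genes of the respiratory chain were 33 above and 44 below with a median of -0.05, and 62 of them had intervals within a 2-fold change. Without rescaling the circadian and extracellular matrix medians were -0.05 and -0.04.

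The 9 tested mitochondrially encoded genes were 2 above and 7 below 0 with a median of -0.26, which was 0.07 without unexposed replicate 1 and -0.56 to 0.07 over all single libraries left out. Averaged relative to the 8 livers they stood at 0.13, -0.33, -0.35 and 0.20 in triclosan livers, against 0.79, 0.15, -0.90 and 0.32 in unexposed livers, so unexposed replicates 1 and 3 were the extremes. The 9 interferon and antigen presentation genes averaged -0.40, -0.14, 0.56 and 0.06 in triclosan livers, against -0.17, -0.08, 0.08 and 0.10 in unexposed livers, with the high value in triclosan replicate 3, the liver with high granulocyte and macrophage markers.

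The 47 tested complement, coagulation and acute phase genes averaged -0.16, 0.07, 0.49 and -0.34 in triclosan livers, against 0.04, 0.16, 0.22 and -0.48 in unexposed livers. Triclosan replicate 3 was the high liver, and replicate 4 was the low one in each group.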
